A study of Mus musculus with 87 samples.

Results

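Insertions of the retrotransposon ETn that were found in a single mouse are described here for Chr4-cl KO/KO (KO) mice on the mixed B6x129X1/SvJ background. ETn capture-seq enriches genomic DNA for the LTR ends of ETn and gives, for each library, the regions that hold uniquely mapped reads whose mate lies in an ETn repeat. Read counts were expressed per 1e6 such reads of the library (RPM), regions of 10 RPM or more were joined within 1000 bp, and this gave 5018 loci over 87 libraries. Main libraries are the 76 that represent 1 animal or embryonic stem (ES) cell line each. A private insertion was selected on its reads: at least 10 RPM in 1 KO animal and no read in any other main library. Of the 4900 loci called in a main library, 942 (19.2%) were private to 1 library and 591 (12.1%) to 1 KO animal of this background, and these 591 are the subject of the following text. The WT and KO/WT animals of the same crosses held another 340. A locus marks the cluster of reads beside an insertion, not the inserted base.

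ETn elements are endogenous retroviruses of the mouse. Their RNA is copied into DNA and the copy is inserted elsewhere in the genome, flanked by a long terminal repeat (LTR) on each side. A copy that lands in the germ line is inherited, whereas one that lands in a cell of the embryo or of a tissue is carried only by the descendants of that cell, so that the animal is a mosaic. KRAB zinc finger proteins bind such repeats and recruit the co-repressor KAP1, and Chr4-cl is a cluster of their genes on chromosome 4. The question of the screen was whether mice that lack this cluster acquire more ETn insertions than their littermates.

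The 27 KO animals were of 2 kinds. Of the 8 labelled B6x129X1/SvJ (F1), 4 (T09673, T09674, T00436 and T00869) came from T3913 and T3921, and 4 (C6427 to C6430) came from a second generation, T09673 x T00869. Of the 19 labelled B6x129X1/SvJ (F2), 8 came from mating 1 (BA27227 x BA27232), 4 from mating 2 (BA27228 x BA27084) and 4 from mating 3 (C7416 x C7249), 2 (H03384 and H03387) were second generation offspring of the mating 1 siblings C6765 and C6733, and BA27232 is the KO parent of mating 1. The comparison animals were 25 WT and KO/WT animals of these crosses. According to the study's methods, the deletion was made in B6 ES cells, and heterozygous clones were injected into blastocysts. No treatment or age is given by the labels, other than a distinction between tail and adult tail. The study calls the tails of matings 1 to 3 juvenile. DNA came from tail, except for ear in T00869, C6427 to C6430, BA27232, C6923, C6924 and C6926 and blood in T09673 and T09674. Depth ran from 607211 to 902477 ETn-paired reads in the KO animals, so that 10 RPM corresponded to at least 7 to 10 reads. In 4 KO animals labelled male (C6923, C6924, C6926 and H04408) at most 0.00677% of reads lay on chromosome Y, compared to 0.142% or more in the other 11 and at most 0.0117% in the 12 labelled female. These 4 held 21 of the 591 insertions.

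The sequences that the screen captures are the ends of the ETn LTR. The most frequent probe sequences of the study's design, shared by 52 and 50 of the 1274 ETn probes, are printed with the terminal dinucleotide of the LTR in capitals.
LTR start: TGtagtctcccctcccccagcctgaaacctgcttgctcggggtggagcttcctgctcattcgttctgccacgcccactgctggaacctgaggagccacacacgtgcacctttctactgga
LTR end: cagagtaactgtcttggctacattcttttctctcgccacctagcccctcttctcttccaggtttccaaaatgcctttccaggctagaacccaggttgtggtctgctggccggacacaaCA

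None of the 591 private insertions lay within 1000 bp of a reference match to any of these probes (blastn, e-value of 1e-05 or less). Over all loci 59.9% had such a match, and of the 2159 loci called in every main library 99.8% did. The private insertions of WT and KO/WT animals had a match in 4 of 340. A site beside a reference ETn copy would give reads in other libraries as well, so the low share follows from the selection and is a description.

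Private insertions were unevenly spread over the animals. No insertion was called in 9 of the 27 KO animals, 1 to 4 were called in 5, and the 6 animals with the most held 398 insertions, 67.3% of all. The highest numbers were 91 in M05668 (mating 3), 84 in C6733 (mating 1), 59 each in H032265 (mating 2) and H03384, 53 in H03387 (both second generation of mating 1) and 52 in C7250 (mating 2). Among the other F2 tails M05143 had 48, C7417 had 42, C7415 had 27, C6765 had 22, H04408 had 17, M05666 had 1, and C7414, C5734 and M05137 had 0. The 3 mating 1 animals with ear libraries had 0, 0 and 4, and the mating 1 parent BA27232, also an ear library, had 4. In the F1 cross T00436 had 18, T09673 had 8, T00869 and C6428 had 1 each, and the other 4 had 0, so that 28 of the 591 insertions came from the F1 animals and 563 from the F2 animals. Ear and blood libraries held 0 to 8 insertions and tail libraries 0 to 91, and the part of the tissue in these numbers was not tested.

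In the juvenile tails of matings 1 to 3, where the number of private insertions can be set against littermates, KO animals held 34.1 ± 31.6 (SD, n = 13) and WT and KO/WT animals 15.1 ± 16 (n = 17). The medians were 27 and 17, 3 KO and 6 other animals had none, and the ranges overlapped. The difference did not pass an exact two-sided permutation test of the rank sum (p = 0.110, adjusted over 4 comparisons 0.313). The effect was 34.4%, which is the percent of KO and non-KO pairs with more insertions in the KO animal minus the percent with fewer. The comparison animals were all KO/WT in mating 1, mostly WT in mating 2 and all WT in mating 3, so the contrast differs between matings. The effect was 57.5% in mating 1 alone, 20% in mating 2 alone and -12.5% in mating 3 alone. None of these passed (exact permutation p = 0.087, 0.683 and 0.886). With permutation within matings it was 32.9% (exact p = 0.146).

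Within the KO tails of these matings the number went with the labelled sex, a split that was chosen because the counts were seen to differ. The 6 males had 84, 59, 52, 17, 91 and 48 insertions, a median of 55.5, and the 7 females had 42, 27, 22, 0, 0, 1 and 0, a median of 1. Among tails, every male of each of the 3 matings had more insertions than every female of that mating. The effect was 85.7% (exact two-sided permutation test, p = 0.00816, adjusted over 2 sex comparisons 0.0163), and 100% with permutation within matings (exact adjusted p = 0.0333) or without H04408, the male with few chromosome Y reads (exact permutation adjusted p = 0.00505). These p-values do not cover the choice of the split and are given as a description.

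Beyond the tails the effect was smaller when the sex labels were used as given. The 3 ear libraries of mating 1, from animals labelled male with few chromosome Y reads, held 0, 0 and 4 insertions, fewer than 3 of the females. With them counted as males the effect was 46% (exact permutation p = 0.135, adjusted 0.27). Over all 27 KO animals, by label, it was 35.6% (permutation p = 0.115, adjusted 0.23). The chromosome Y shares of these 3 animals lay in the range of the females, and their tissue was not tail. These values therefore cannot decide whether the pattern holds beyond the tails, and no value with these 3 left out was computed outside the tails.

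The median depth of the tails was 678528 reads in the KO males and 800823 in the KO females, so that a call needed 7 and 9 reads in the median library. Depth went with the mating, at 800823 to 843579 reads in KO tails of mating 1 and 607211 to 699932 in those of matings 2 and 3. Most of the KO females came from mating 1. The part of depth in the difference in insertions between the sexes was not tested beyond the following alternatives. After all libraries had been thinned to the depth of the shallowest, the effect was again 85.7% (exact permutation adjusted p = 0.0163). With a threshold of 20 RPM it was 64.3% and with at least 10 reads 61.9%, with exact permutation adjusted p of 0.110 and 0.143. In the WT and KO/WT littermates 7 males had a median of 18 and 10 females 8.5, an effect of 18.6% (exact permutation p = 0.541, adjusted 0.541). The sex effect in KO animals was not shown to differ from that in their littermates. The difference between these effects, measured by mean rank, gave an exact permutation p of 0.108 (adjusted over 4 such differences 0.349). Sex labels were permuted within KO and within other animals, so the permutation assumes no sex effect in either and ignores matings. Of the 6 WT and KO/WT animals without an insertion, 5 were mating 1 females and 1 was a mating 2 male.

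**Figure D1:**
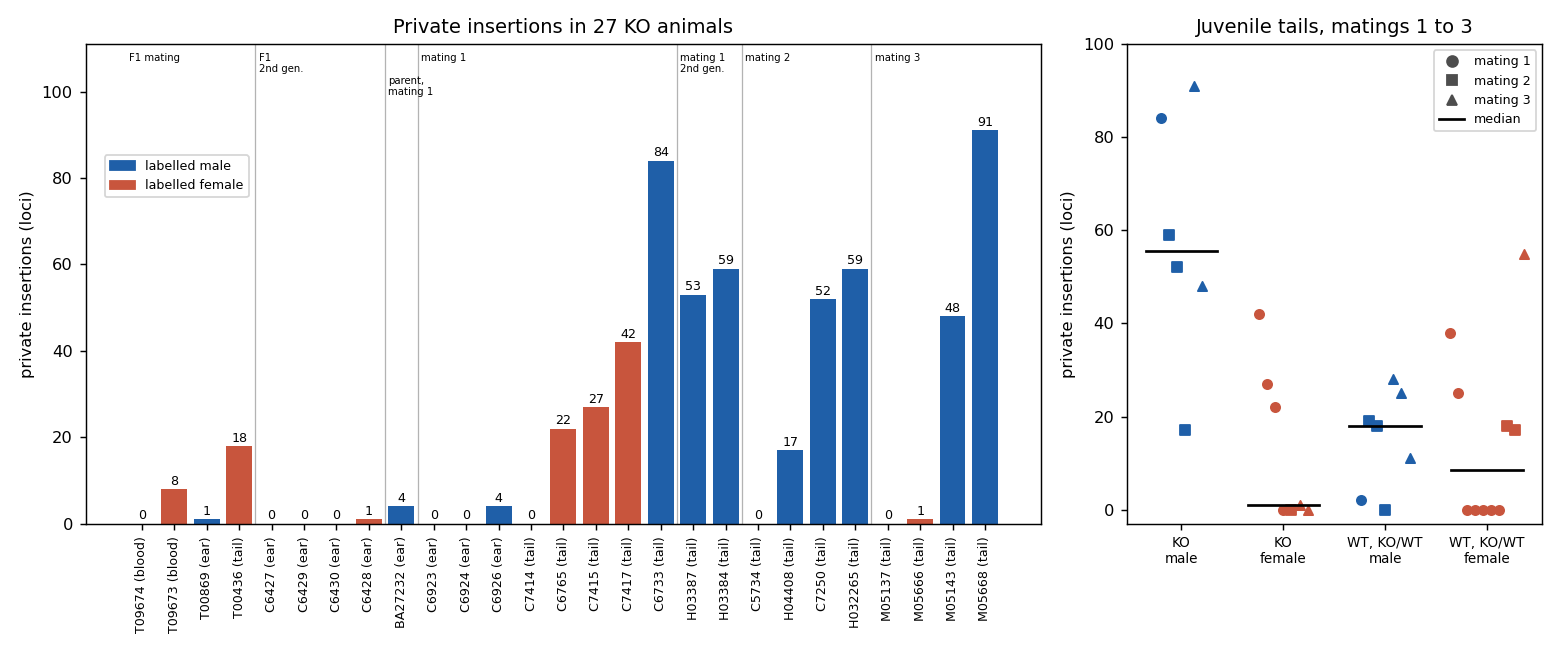
Left, the number of private insertions (loci of 10 RPM or more and without a read in any other main library) in each of the 27 KO animals, ordered by cross, with the tissue in parentheses and bars coloured by the labelled sex. Right, the same count in the juvenile tails of matings 1 to 3 by genotype and labelled sex, 1 point per animal with the median as a line, where the KO males lie between 17 and 91 and the KO females between 0 and 42.

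Most private insertions were supported by few reads. RPM was used to choose the members, and the values are given as a description. The median was 13.6 RPM with quartiles of 11.6 and 18.5, which is 10 reads with quartiles of 8 and 13, and 344 of the 591 (58.2%) were under 15 RPM. Only 116 reached 20 RPM, and 1 reached 50 RPM. The values just inside the threshold were 10.05, 10.14 and 10.14 RPM (7 reads each), and the 3 nearest private loci outside it, all in C7415, had 9.99 RPM from 8 reads.

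The loci called in every main library held a median of 449 RPM in the same KO animals (quartiles 277 and 542). The 262 loci that were called in at least 10 main libraries and had no read in at least 10 others held 147 RPM (33.0 and 234) where called. In the 13 KO animals with at least 5 private insertions the median of the loci present in every library was 27.8 to 38.9 times that of the animal's private insertions. The animals' own private medians lay between 11.7 (H04408) and 16.1 RPM (T09673). The selection set a lower limit of 10 RPM on these levels and no upper limit. A lower share of cells with the insertion and a less efficient capture of a site cannot be told apart in these libraries.

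The exception was the only private insertion of M05666, a mating 3 KO animal. Its locus on chromosome 8 (chr8:64106528-64107341, mm9) held 201 reads, 293 RPM, within the quartiles of the loci present in every library. It lies in an intron of Palld, which encodes palladin, an actin-binding protein of the cytoskeleton. At 814 bp its read cluster was wider than the median of 438 bp.

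**Figure D2:**
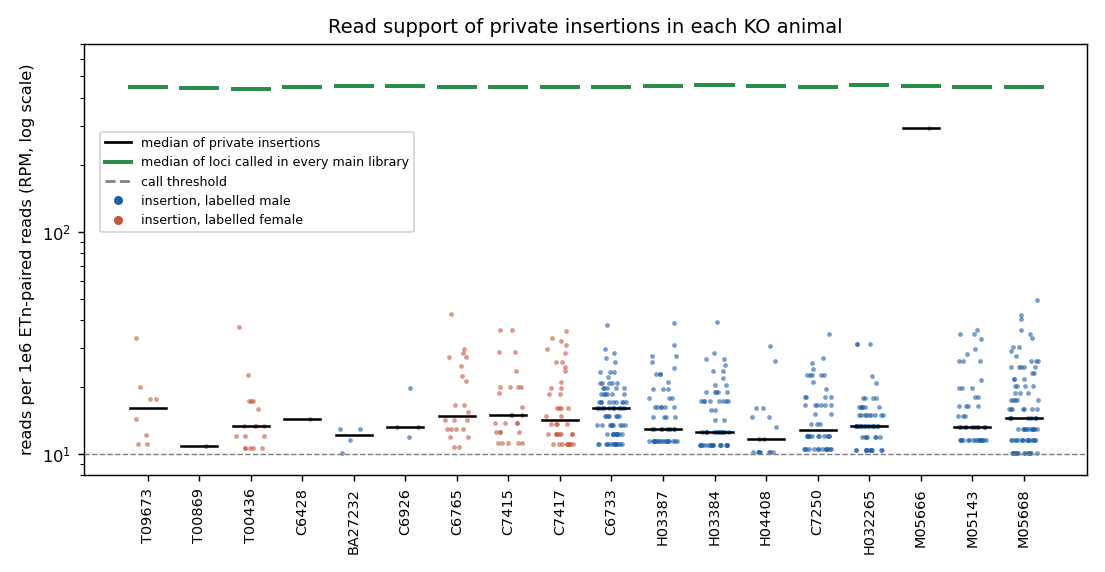
Read support in RPM (log axis) of every private insertion, by KO animal with at least 1, with points coloured by the labelled sex, black lines for the medians of the private insertions, green lines for the median of the 2159 loci called in every main library in the same animal, and a dashed line at the threshold of 10 RPM. The insertion at 293 RPM in M05666 is the only one near the green lines.

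The next strongest insertions were far below that of M05666. M05668 held 3 of the other 9 in the highest 10, at 49.3 RPM (34 reads, chr7:59426435-59426897, between genes), 42.0 RPM (29 reads, chr7:126339973-126340393, between genes) and 40.6 RPM (28 reads, chr5:135620056-135620708, between genes, 5145 bp from a start of Tbl2). C6765 held 42.7 RPM (36 reads) in an intron of Ttll11, a tubulin polyglutamylase gene, on chromosome 2 (chr2:35636453-35637022). H03384 held 39.4 RPM (25 reads) in an intron of Wwox, a large oxidoreductase gene at a fragile site, and H03387 39.0 RPM (24 reads) at a noncoding exon of Blnk, an adaptor of B cell receptor signalling. C6733 held 38.1 RPM (31 reads) in an intron of the Rab GTPase gene Rab30 and M05143 36.2 RPM (22 reads) in an intron of the ubiquitin ligase gene Znrf2. The F1 animal T00436 held 37.2 RPM (28 reads) between genes on chromosome 8 (chr8:10770421-10771111). Of these 10, 5 lay in introns, 1 at a noncoding exon and 4 between genes.

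The width of the read clusters of private insertions ran from 174 to 1170 bp with a median of 438 and quartiles of 354 and 520 bp, and 1 was wider than 1000 bp. Loci called in every main library had a median width of 3054 bp, and the 262 loci of variable presence 1546 bp, but these are joined over many libraries and hold more reads, so that the shorter width of private loci follows from the selection. Width and RPM rose together across the insertions (Spearman's rho 0.429 over 591 loci, a description, since loci of 1 animal share a library and more reads cover more bases). The median width per animal was 441 ± 65.7 bp (SD, n = 9) in KO tails with at least 5 insertions and 425 ± 50.6 bp (n = 10) in WT and KO/WT tails (effect 18.9%, exact two-sided permutation p = 0.511, adjusted 0.682), and within matings the effect was 0%.

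Further libraries of the same animals did not enter the selection and allowed the insertions to be looked up again. The second tail libraries are labelled replicates, and the paper describes its technical replicates as made from the same DNA sample. C7415 had 27 private insertions, and all 27 held reads in a second library of its tail (100%, exact 95% interval 87.2 to 100%), of which 15 were again at 10 RPM or more. H03387 had 53, and 52 held reads in the second tail library (98.1%, 89.9 to 100%), of which 29 were at 10 RPM or more. The median fell from 15 to 11.2 RPM in C7415 and was 13 and 12.6 RPM in H03387, the first value in each animal being the one on which the insertions were selected. Of the other loci called in these animals 2594 of 2595 and 2514 of 2515 (100% after rounding) held a read in the second library. Insertions private to other KO animals held no read in either of these second libraries (0 of 564 and 0 of 538, which allows 3 counts in all). C5734, which had no private insertion, held none of the other animals' insertions in its second library either (0 of 591).

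C6733 was also sequenced from an adult tail and from organs. Of its 84 private insertions 19 held reads in the adult tail (22.6%, 14.2 to 33.0%), 7 of them at 10 RPM or more, whereas 99.9% of the other loci called in C6733 held reads there. The strongest of these in the adult tail were 33.5 RPM between genes on chromosome 14 (chr14:29710218-29710800, 19.7 RPM in the juvenile tail), 29.1 RPM between genes on chromosome 4 (chr4:44949708-44950352, 13.5 RPM) and 23.3 RPM in E130308A19Rik on chromosome 4 (chr4:59690616-59691149, 16.0 RPM). All 3 were higher in the adult than in the juvenile tail. The median RPM of the juvenile tail was 16.0 both for the 19 found again and for the 65 not found again.

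In testis, brain, blood, kidney and a second library of the testes, none of the 84 held a read (0%, exact interval up to 4.30% in each library). Over these 5 organ libraries, 99.9% of the other called loci of C6733 held reads. At their depths of 667051 to 709037 reads, 3 counts correspond to 4.23 to 4.50 RPM, which is the level below which an insertion could be present without a read. Of the insertions private to other KO animals 3 of 507 held reads in the adult tail of C6733, and none did in its organs.

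**Figure D3:**
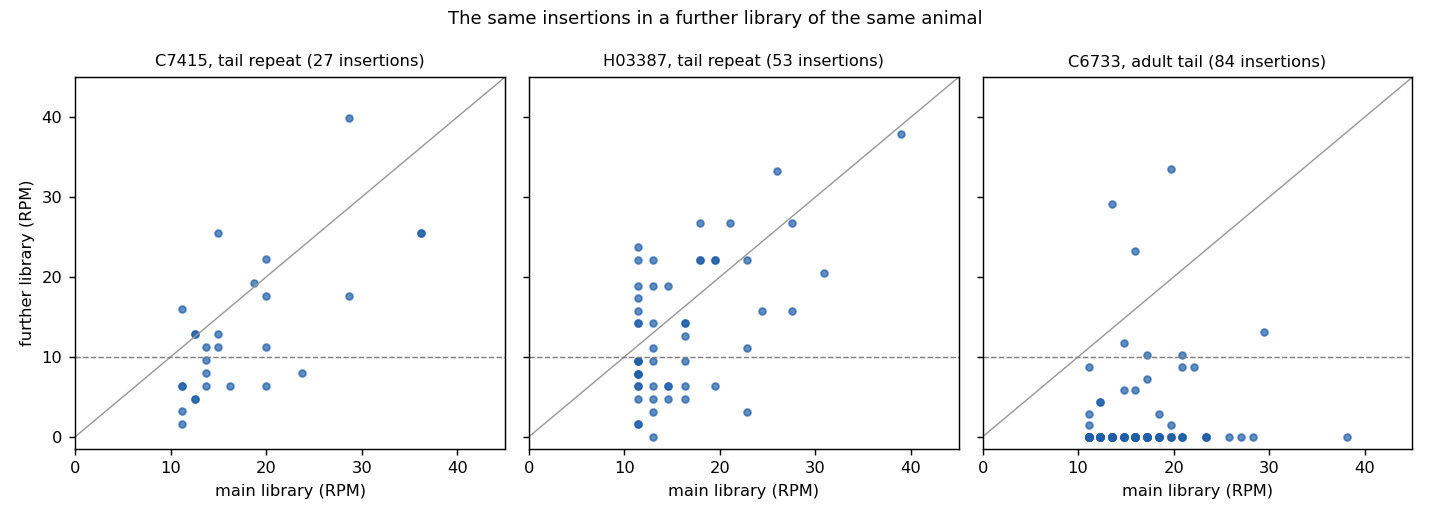
RPM of the private insertions of C7415 (27), H03387 (53) and C6733 (84) in the main library, on which they were selected, against a further library of the same animal, with a solid line at equal values and a dashed line at 10 RPM. The repeat libraries of tail DNA hold reads at all but 1 insertion of H03387, whereas 65 of 84 insertions of C6733 lie at 0 in its adult tail.

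All chromosomes received private insertions, in numbers that mostly followed their length. Chromosome 2 held the most, 61 insertions from 14 animals, followed by chromosomes 1 (46), 4 (40), 6 (37) and 7 (33), and chromosome 12 the fewest among autosomes (18). For 18 of the 21 chromosomes the exact 95% interval of the share of insertions included the chromosome's share of genome bases. The exceptions were chromosome 2, with 10.3% (7.99 to 13.1%) of the insertions on 6.97% of the bases, chromosome 19, with 4.23% (2.76 to 6.18%) on 2.27%, and chromosome X, with 2.37% (1.30 to 3.94%) on 6.33%. Intervals cover counting error only, and 21 were computed. Shares of genome bases, here and below, count all bases of known sequence, whereas reads had to map uniquely. The uniquely mappable part of the genome was not computed. In WT and KO/WT animals chromosome 2 held 7.65%, chromosome 19 2.94% and chromosome X 2.35% of the private insertions.

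The X chromosome is present in 1 copy in males, which held most of the insertions. In KO animals labelled male 9 of 472 lay on X (1.91%, 0.876 to 3.59%), where X makes up 3.27% of bases when each chromosome is counted by its copies. In KO animals labelled female 5 of 119 did (4.20%, 1.38 to 9.53%), against 6.34% of bases. Both intervals include the copy-weighted share. In WT and KO/WT animals 6 of 163 (3.68%, 1.36 to 7.84%) of the males' and 2 of 177 (1.13%, 0.137 to 4.02%) of the females' private insertions lay on X, and the latter interval lies below it. On the Y chromosome 2 insertions were found, in M05668 and H032265, both labelled male.

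**Figure D4:**
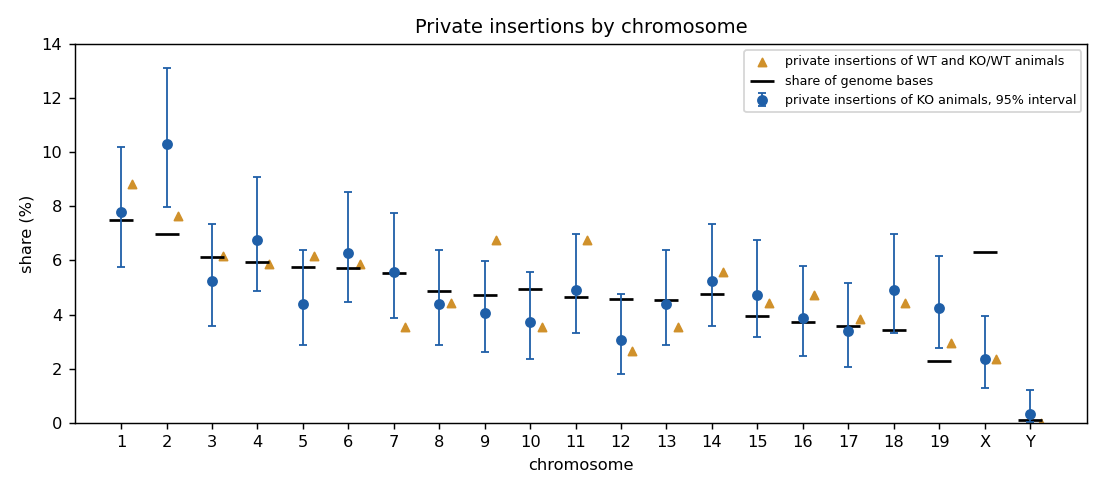
Share of private insertions on each chromosome in KO animals (circles, with exact 95% binomial intervals) and in WT and KO/WT animals (triangles), beside the chromosome's share of genome bases (horizontal marks). The intervals of chromosomes 2 and 19 lie above and that of X below the share of bases.

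About as many insertions landed in genes as between them. The midpoint of the locus lay inside an annotated gene in 304 of 591 insertions (51.4%, 47.3 to 55.5%), while gene bodies make up 41.3% of genome bases. Over all loci the share was 26.3%, and over the loci called in every main library 21.1%. Genome bases include those where reads do not map uniquely, and the part of this in the difference from 41.3% was not tested. By position, 274 midpoints (46.4%) lay in introns, 22 in exons outside coding sequence, 8 in coding exons and 287 (48.6%) between genes. Protein coding genes held 285 (48.2%), on 38.9% of genome bases. Among the 13 KO animals with at least 5 insertions, 12 had a share inside genes above 41.3%, and the per-animal values ran from 41.2 to 75% with a mean of 53.5 ± 8.53% (SD, n = 13).

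Private insertions of WT and KO/WT animals had a similar share in genes, 49.7% of 340 (44.3 to 55.2%). Per animal the share was 50.2 ± 5.11% (SD, n = 9) in KO tails and 46.1 ± 12.6% (n = 10) in WT and KO/WT tails, and the groups overlapped (effect 10%, exact two-sided permutation p = 0.737, adjusted 0.737), with an effect of 25% within matings. The lowest value was 18.2% in the WT animal M05141, which had 11 insertions.

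The surroundings of the insertions were slightly richer in GC than the genome. The 1000 bp centred on a KO insertion held 43.4 ± 5.42% GC (SD over 591 loci, from 28.3 to 60.2%), compared to 41.8% over the genome, 42.8% at loci called in every main library and 43.9% at private insertions of WT and KO/WT animals. Over all loci the mean was 41.9%, and at the 262 loci of variable presence 41.5%. The genome value also counts bases where reads do not map uniquely. The animal mean was above the genome value in 11 of the 13 KO animals with at least 5 insertions. In the tails it was 43.3 ± 1.02% (SD, n = 9) in KO and 43.9 ± 0.629% (n = 10) in WT and KO/WT animals (effect -40.0%, exact two-sided permutation p = 0.156, adjusted 0.313), and within matings the effect was -14.3%. Sites were on median 29.9 kb from the nearest start of a protein coding gene in KO animals and 27.8 kb in WT and KO/WT animals. The median was 50.8 kb for the loci called in every main library, 44.2 kb over all loci and 38 kb for the loci of variable presence.

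**Figure D5:**
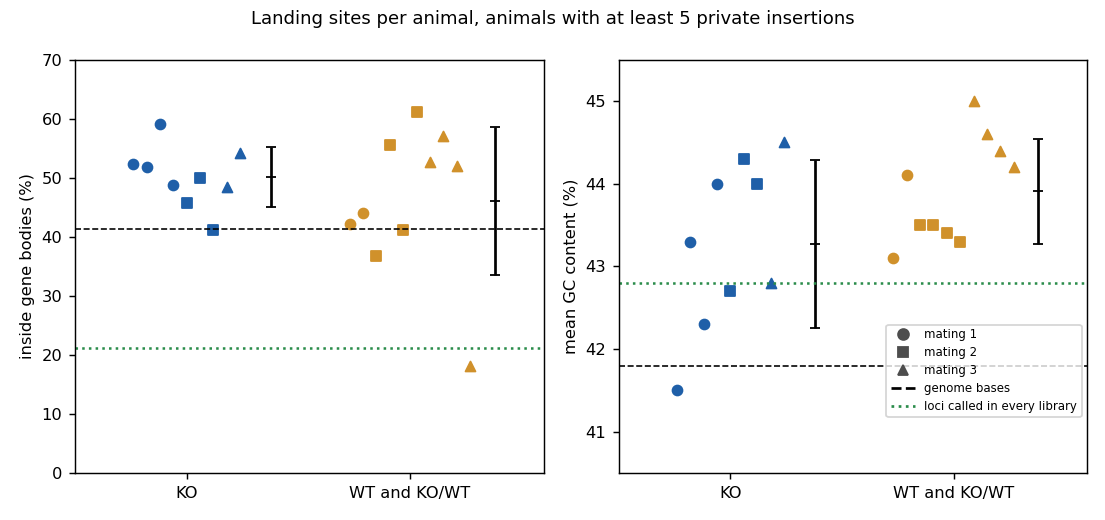
Share of private insertions inside gene bodies (left) and mean GC content of the 1000 bp around them (right, axis not from 0) per juvenile tail with at least 5 insertions, in 9 KO and 10 WT and KO/WT animals, with mean and SD beside the points, dashed lines for the genome and dotted lines for the loci called in every main library. Shares inside genes lie above the dotted line in all but 1 animal, and the groups overlap in both panels.

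The genes that held an insertion were long. In all 309 genes held a midpoint, 281 of them protein coding, with a median length of 117 kb, compared to 15.4 kb over the 22380 protein coding genes of the annotation. A longer gene offers more bases to land in, so sites without any preference would also lie in long genes. No value weighted by length was computed, and the lengths are a description. In 9 genes insertions of more than 1 KO animal were found, and each was a separate locus. Fgfr2 was counted in 4 animals and Gm20388 in 3, but only through single transcript models of 3009 kb and 4435 kb that run across many other genes. The 4 loci counted to Fgfr2 (C6733 at 12.3 RPM, inside Ate1, H032265 at 10.4 RPM, inside Tacc2, H03387 at 22.8 RPM and M05668 at 18.8 RPM) lie outside its other 28 transcripts, the longest of which spans 104 kb. Without both models the share inside genes was 50.6% of insertions, on 41.1% of genome bases.

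The other 7 genes each held insertions of 2 animals in models of 227 to 1036 kb. Mllt3, which encodes a reader of acetylated histones in transcription elongation complexes, held one of C7250 (10.5 RPM) and one of BA27232 (12.9 RPM), 10823 bp apart in introns. Palld held, beside the insertion of M05666, one of C7415 at 13.7 RPM, 9944 bp away. Mll3, a histone H3 lysine methyltransferase, held one of C6765 (29.6 RPM) and one of C7415 (12.5 RPM). Nebl, the gene of the muscle protein nebulette, held one of T09673 (12.2 RPM) and one of C7250 (24.1 RPM), and the proprotein convertase gene Pcsk5 one of C6765 (10.7 RPM) and one of H03384 (17.3 RPM). Cntnap5c, of the neurexin superfamily, held one of H03387 (17.9 RPM) and one of M05143 (13.2 RPM), and 1700112E06Rik one of H03387 (30.9 RPM) and one of M05668 (26.1 RPM). In 3 cases members of different animals lay within 20 kb of each other. These are the pairs in Mllt3 and Palld and a pair on chromosome 7 (H03387 at chr7:139354585-139355259 and M05668 at chr7:139356907-139357519) whose read clusters were 1647 bp apart. The number of such pairs for sites without any preference was not computed, so the pairs are a description.

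Over the annotation 1.26% of protein coding genes held a private insertion, and the gene lists are read beside that share and their share of bases. Of 47 genes of a list of very long genes, many of them with roles at synapses or in adhesion, 6 (12.8%) held a total of 7 insertions, 1.18% of all on 2.13% of genome bases. They were Wwox (39.4 RPM), the receptor tyrosine kinase gene Erbb4 (C6765, 24.9 RPM), the glutamate receptor gene Grm8 (C7250, 22.6 RPM), Cntnap5c, the synaptic scaffold gene Dlg2 (H03384, 14.2 RPM) and the splicing factor gene Rbfox1 (M05668, 10.1 RPM). Of 35 early embryo and ES cell genes, on 0.0398% of genome bases, 1 did, with 1 insertion of C6733 at 11.1 RPM in Tet1, a DNA demethylase gene. The 7 genes in which ETn or MusD insertions are known as mouse mutations held none, on 0.0202% of genome bases. Of 379 genes with a Zfp symbol, on 0.423% of genome bases, 2 held one (Zfp385b in C6733, 14.8 RPM, and Zfp26 in M05668, 11.6 RPM). None of 1251 olfactory and 437 vomeronasal receptor genes held one, on 0.0811% and 0.166% of genome bases.

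Coding exons were reached by the read clusters of 24 insertions (4.06%, 2.62 to 5.98%), and 8 midpoints (1.35%, 0.586 to 2.65%) lay in coding sequence, which makes up 1.4% of genome bases. Among the 15 of the 24 with the highest RPM were the transcription elongation factor gene Aff3 (C7417, 28.4 RPM), the keratin gene Krt78 (C6733, 28.3 RPM), the chaperonin subunit gene Cct7 (C7250, 22.6 RPM) and the nucleoporin gene Nup210l (M05143, 19.8 RPM). Capn8, a calpain protease gene, and Fig4, a phosphoinositide phosphatase gene, were both reached in H03387 at 19.5 RPM. Mcm3, a subunit of the replicative helicase, was reached in C7417 at 18.5 RPM. C7250 also had 3 at 16.6 to 18.1 RPM, in the meiotic recombination gene Msh5, the translation factor gene Eif4g3 and Lztr1, a regulator of RAS. Rrnad1 (H03387), the histidine ammonia-lyase gene Hal (C7415), the cytoskeletal linker gene Dst (C6733), the tropomyosin gene Tpm1 (C7417) and Nebl (T09673) followed at 12.2 to 16.3 RPM. The overlap was often slight, at 5 bp of 442 in Capn8 and 14 bp of 485 in Nebl.

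Reference sequence at the centre of the read cluster is printed for the insertion with the highest RPM and for 6 of the 8 with a midpoint in coding sequence, to show how far coding bases reach. The last 4 were chosen after their values were seen. Each line is the 120 bp plus strand of mm9 with coding bases in capitals, and the inserted base itself is not known.
Palld (M05666, intron, chr8:64106874-64106993, 293 RPM): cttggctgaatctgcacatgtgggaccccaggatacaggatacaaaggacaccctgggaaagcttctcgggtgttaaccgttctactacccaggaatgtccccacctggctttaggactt
Krt78 (C6733, chr15:101778439-101778558, 28.3 RPM): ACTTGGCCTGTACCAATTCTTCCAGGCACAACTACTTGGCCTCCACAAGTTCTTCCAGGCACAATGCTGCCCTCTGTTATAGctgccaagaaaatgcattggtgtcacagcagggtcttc
Mcm3 (C7417, chr1:20802128-20802247, 18.5 RPM): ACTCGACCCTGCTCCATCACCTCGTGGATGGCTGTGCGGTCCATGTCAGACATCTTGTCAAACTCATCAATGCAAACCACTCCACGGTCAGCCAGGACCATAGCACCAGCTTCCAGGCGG
Mgat5b (M05668, chr11:116839421-116839540, 11.6 RPM): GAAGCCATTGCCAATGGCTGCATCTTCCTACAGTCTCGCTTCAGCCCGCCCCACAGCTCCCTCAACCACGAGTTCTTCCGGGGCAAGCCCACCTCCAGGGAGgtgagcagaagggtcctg
Dusp10 (M05143, chr1:185892965-185893084, 11.5 RPM): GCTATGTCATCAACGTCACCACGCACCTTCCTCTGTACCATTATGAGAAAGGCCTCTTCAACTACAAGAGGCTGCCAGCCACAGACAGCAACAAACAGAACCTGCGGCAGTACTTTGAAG
Prdm1 (M05143, chr10:44161850-44161969, 11.5 RPM): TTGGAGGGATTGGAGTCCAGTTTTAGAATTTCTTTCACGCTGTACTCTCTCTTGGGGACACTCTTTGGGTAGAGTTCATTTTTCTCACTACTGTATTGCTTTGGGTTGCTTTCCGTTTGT
Lrp4 (H032265, chr2:91313303-91313422, 10.4 RPM): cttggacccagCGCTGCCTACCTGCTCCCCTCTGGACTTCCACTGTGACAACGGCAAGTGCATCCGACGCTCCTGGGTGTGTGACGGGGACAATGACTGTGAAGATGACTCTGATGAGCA

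Mgat5b encodes a glycosyltransferase, Dusp10 a phosphatase of MAP kinases, Prdm1 a transcriptional repressor of germ cell and lymphocyte development, and Lrp4 the agrin receptor of the neuromuscular junction. GC content of the printed windows ran from 42.5% (Prdm1) to 61.7% (Mgat5b), and that at Palld was 52.5%.

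Starts of protein coding genes were within 1000 bp of 22 insertions (3.72%, 2.35 to 5.58%) and within 5000 bp of 87 (14.7%). In WT and KO/WT animals 13 of 340 lay within 1000 bp (3.82%, 2.05 to 6.45%) and 55 (16.2%) within 5000 bp. The 10 with the highest RPM were near Abca4, a transporter of the photoreceptor (C7417, 30.9 RPM, 524 bp from a start), Gpr107 (C7415, 28.7 RPM, 80 bp), Uckl1 (M05143, 26.3 RPM, 719 bp), Tor1a, which encodes torsin (H03387, 26 RPM, 317 bp), Ttc13 (M05143, 19.8 RPM, 556 bp), Capn8 (H03387, 19.5 RPM, 163 bp), Rbm28 (C6765, 16.6 RPM, 750 bp), Lztr1 (C7250, 16.6 RPM, 295 bp), Hal (C7415, 15 RPM, 389 bp) and Dst (C6733, 14.8 RPM, 796 bp). At the other end, 145 insertions (24.5%) lay more than 100 kb from any such start, compared to 95 (27.9%) in WT and KO/WT animals. Shares by distance to a start were not computed over all loci or genome bases, so nearness to starts was not tested.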

How the data were processed

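Genomic DNA of 76 mice or ES cell lines had been captured with ETn LTR probes in 87 libraries, 11 of them further libraries of an animal. According to the methods and the submitters' processing notes, the authors mapped both mates separately to mm9 with Bowtie, removed duplicates with SAMtools, kept unique reads paired with an ETn read and merged them within 1000 bp with bedtools. Versions were not given in the sources used here. What the authors deposited is a whole-number read count per region and library, neither scaled nor pooled. The authors' later removal of annotated and polymorphic ETn was not applied here.

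RPM is the count divided by the library total (525419 to 1046650 reads). Genes and sequence came from the NCBIM37 (mm9) reference and its GENCODE annotation, and 1274 ETn probes (902 different sequences) were aligned with blastn 2.17.0 (word size 11). Locus calling and the rank test were tested on simulated data. Per-animal values were compared in 13 KO and 17 WT and KO/WT tails (those with at least 5 private insertions for landing sites) by exact permutation of the rank sum, with a threshold of 0.05 on Benjamini-Hochberg adjusted p. Intervals are Clopper-Pearson and cover counting error only, since reads carry no molecular identifiers. Named insertions are the 10 highest in RPM, those at coding exons (15) or within 1000 bp of starts (10), genes hit in 2 or more animals, and genes of 3 lists. The members and lists were chosen with earlier results of these data known. Alternatives covered thresholds, joining, other animals' reads, gene sets, windows, minimum numbers, matings and single animals. The sex comparison, its wider sets of animals, thinning and permutation within sexes were added after seeing the data.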

Additional observations from a re-analysis of the deposited data

Results flagged for a closer look

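In the 4 KO ear libraries of the F1 second generation, 1 private insertion was called in C6428 and 0 in the other 3, so that C6428 stood apart from the rest of its group in Dixon's test. With 3 counts of 0 any other count stands apart in this test, so the flag carries no information on this animal. The insertion, at 14.4 RPM, lies inside a gene.

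In the adult tail of C6733, a library that served here only to look up insertions again, 22 loci were called that held no read in any other library of the series. The highest number of such loci in a further library of a WT or KO/WT animal was 8, in the adult tail of C7416.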

How the results depend on the processing

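No paired analysis was possible because numbers within a group follow the order of listing and pair no animals. Permutation within matings changed no call. The number of private insertions in KO animals was 1687 at 5 RPM, 116 at 20 RPM and 336 with at least 10 reads, and 521 to 612 under 5 other settings, while the share inside genes stayed between 48.2 and 51.9%. Of 80 insertions looked up in the repeat tail libraries of C7415 and H03387, 98.8% held a read and 55% reached 10 RPM. Of 84 looked up in the adult tail of C6733, 22.6% held a read and 8.33% reached 10 RPM. Pooled over these unlike libraries, the shares of 164 were 59.8% and 31.1%. The sex effect in KO animals was 64.3% at 20 RPM and 61.9% with at least 10 reads, and 100% in each of matings 1, 2 and 3 alone, where so few animals cannot reach the threshold (smallest possible exact permutation p = 0.4, 0.5 and 0.333). With the sex labels used as given, it was 46% with the ear libraries of mating 1 and 35.6% over all KO animals. Both include the ear animals labelled male with few chromosome Y reads. Leaving out 1 animal gave 82.9 to 100%, with p-values that do not cover the choice of the split. The sex effect in WT and KO/WT animals changed sign at 20 RPM (-1.43%) and in mating 3 alone (-100%). The KO effect on the number became -12.5% in mating 3 alone, and in mating 2 alone that on the share inside genes was -8.33%, on GC 33.3% and on width -50%. The cause was not tested. Leaving out 1 animal gave 28.9 to 42.6% for the number, 0 to 22.2% for the share inside genes, -52.5 to -32.5% for GC, 10 to 33.8% for width and 11.1 to 31.7% for sex in WT and KO/WT animals. None of the 4 KO comparisons passed under any alternative run (lowest adjusted p 0.117). Calls near 7 reads rest on the depth of the library, so animals without a call may hold weaker insertions.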

Other observations

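In 18 genes private insertions of both KO animals and WT or KO/WT animals were found, among them the genes of the glutamate receptors Grin2b and Grm8, the axon guidance genes Sema3a and Slit3, the calcium channel subunit gene Cacna2d3 and the potassium channel gene Kcnma1. These genes were named after their values were seen, and the count includes the long models of Fgfr2 and Gm20388. Others of the 18 were Myof, Prdm1, Slc39a11 and Foxp1. The 18 genes spanned 64.1 to 4435 kb, compared to a median of 15.4 kb over protein coding genes. In all, 309 genes held a KO insertion. The overlap for sites without any preference was not computed, so the count is a description.

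Private insertions of WT and KO/WT animals reached 195 RPM, and 3 of 340 were at 50 RPM or more, compared to 1 of 591 in KO animals. The values of 195 RPM (BA27228) and 75.3 RPM (BA27084) come from parents whose own parents were not sequenced, so that inheritance could not be looked up in ancestors. The same holds for the 4 insertions of BA27232. By the selection, none of these loci held a read in the main libraries of the sequenced offspring of these parents. Whether they were inherited was not tested further. Of the 25 private insertions of the KO/WT animal C7416, 18 held reads in its adult tail (72%, exact 95% interval 50.6 to 87.9%), and all 17 of the WT animal C5731 held reads in a second library of its tail (80.5 to 100%).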
